A study of Schizosaccharomyces pombe with 9 samples.

Results

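The added effect of losing *ecl1* and *ecl2* in fission yeast that already lacked *ecl3* was measured by comparing *ecl123*Δ cells with *ecl3*Δ cells. The comparison used the 6 libraries that the labels assign to these strains, 3 of *ecl123*Δ and 3 of *ecl3*Δ, out of 9 in the series, and the other 3, of WT cells, are given beside them as values with no test. The *ecl123*Δ strain is h− and carries *ecl1*∆::*hygMX*, *ecl2*∆::*natMX* and *ecl3*∆::*kanMX*, and the *ecl3*Δ strain is h− and carries *ecl3*∆::*kanMX* alone, so the *ecl3* deletion is shared by the groups compared. The WT is h−. According to the strain list, every strain has the markers *leu1-32*, *ura4-D18* and *his3-D1* together with 1 of a pair of *ade6* alleles, *ade6-m210* or *ade6-m216*, and which of these each deletion strain has was not given in the sources used here.

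Poly(A)+ RNA came from vegetative cells in log phase in YES, a rich medium of yeast extract with supplements, at 30 °C. Each genotype was 1 haploid strain, and the triple mutant came from serial crosses and random spores, so other differences between the strains cannot be told apart from the *ecl* deletions. The days of culture, RNA extraction and sequencing were not given, and a difference between days cannot be told apart from one between strains either. The replicates are biological replicates of 1 strain each, and the p values measure the spread between them.

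The *ecl* genes (extender of chronological lifespan) encode 3 small related proteins with a cysteine-rich zinc-binding motif, first described because extra copies lengthen the survival of cells that have stopped dividing. Mating in fission yeast starts when the transcription factor Ste11 turns on genes for pheromones, their receptors and the MAP kinase cascade that carries the pheromone signal. In rich medium these genes are held at low levels, and nitrogen starvation induces them. Cells of the M mating type, labeled h−, secrete M-factor and carry the receptor for P-factor.

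The targeted genes were examined first. *ecl3* had counts of 0, 0 and 1 in *ecl123*Δ, 0, 0 and 0 in *ecl3*Δ, and 23, 15 and 42 in the WT. Those counts are too low for the test, and the ratio of *ecl123*Δ to the WT was 0.0125 with a 95% exact Poisson interval of 0.000313 to 0.0717, which covers counting error only. When the 3 *ecl3*Δ libraries together are set to a floor of 3 counts, *ecl3* was at least 27.7-fold lower in *ecl3*Δ than in the WT.

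Reads counted at *ecl1* (SPCC70.12c) rose in the strain that carries the *ecl1* deletion. Its normalized read counts, which are counts per library scaled to a common depth, were 2757, 3011 and 3402 in *ecl123*Δ, against 621, 462 and 540 in *ecl3*Δ and 506, 480 and 392 in the WT. The libraries did not overlap, and the 5.65-fold difference (log2 2.50, SE 0.14) had an adjusted p of 0.000423 in the quasi-likelihood test of edgeR over 6225 genes. It was the 1 coding gene of 4985 to pass an adjusted p of 0.05 (0.0201% of those tested), and 0 coding genes passed in the lower direction. In the RefSeq annotation the *ecl1* mRNA has 820 bases and its ORF 243, so 70.4% of the mRNA lies outside the ORF that the cassette replaced, and these reads do not check the deletion.

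The same holds at *ecl2* (SPBP35G2.16c), where 83.1% of an mRNA of 1509 bases lies outside the ORF of 255. Its normalized read counts were 2176, 1998 and 2255 in *ecl123*Δ, against 1276, 1932 and 1342 in *ecl3*Δ and 1709, 1497 and 1467 in the WT. The lowest *ecl123*Δ library stood just above *ecl3*Δ replicate 2, and the log2 difference of 0.50 (SE 0.16) did not pass edgeR (adjusted p = 0.584).

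The largest fold difference of any gene that passed was at SPNCRNA.1400, the annotated noncoding RNA next to *ecl2*, on the opposite strand and not overlapping it. It had 1319, 1654 and 1259 normalized reads in *ecl123*Δ, against 54.6, 95.4 and 76.6 in *ecl3*Δ and 109, 81.8 and 135 in the WT. These levels lay 18.7-fold apart (log2 4.23, SE 0.23, edgeR adjusted p = 0.000423), and it was the 1 noncoding gene of 1240 to pass (0.0806%). The kit kept strand, but the strand setting of the counting was not given, so reads of genes on opposite strands of 1 place may have been counted together. RefSeq also annotates an antisense RNA across *ecl1*.

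**Figure D1:**
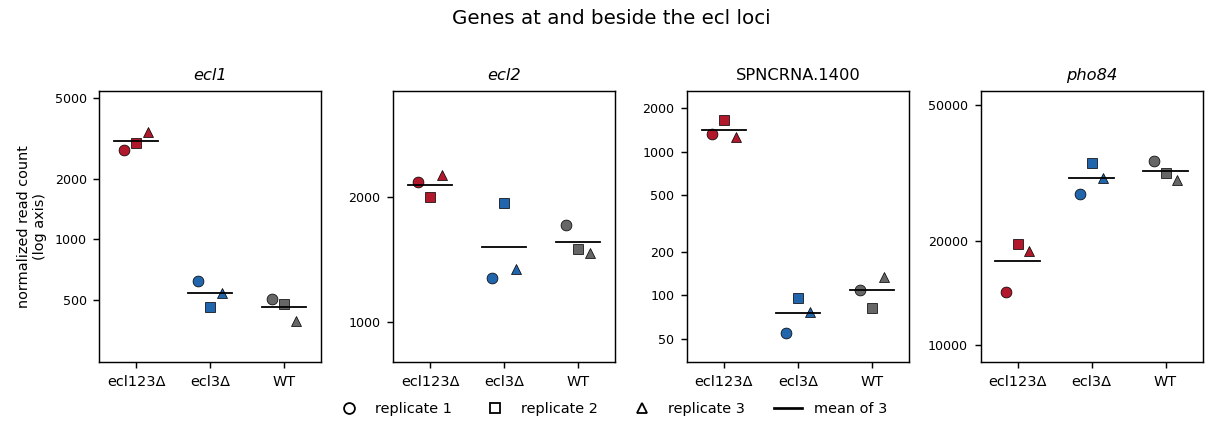
Normalized read counts (log axes that differ between panels) of *ecl1*, *ecl2*, SPNCRNA.1400 and *pho84* in *ecl123*Δ, *ecl3*Δ and WT cells; points are libraries, marked by replicate, and bars are means of 3. The *ecl123*Δ libraries sit between 2757 and 3402 at *ecl1* and between 1259 and 1654 at SPNCRNA.1400, well above the others, and below the others at *pho84*.

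Of the nearest coding genes on each side of the *ecl* loci, 5 of 6 had overlapping libraries. *nnk1*, which encodes a protein kinase beside *ecl1*, had 3050, 3402 and 4822 normalized reads in *ecl123*Δ and 3393, 3676 and 3042 in *ecl3*Δ (log2 0.16, SE 0.18). On the other side of *ecl1*, SPCC70.04c differed by log2 0.07 (SE 0.30), and this value changes sign when single libraries are left out. Beside *ecl2*, *dic1* differed by log2 0.18 (SE 0.29) and SPBP35G2.17, on the far side of SPNCRNA.1400, by log2 -0.55 (SE 0.43). The value of SPBP35G2.17 rests on *ecl3*Δ replicate 2, at 935 normalized reads against 308 and 341 in its fellow libraries, and without that library it was 0.15.

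The exception was *pho84*, which encodes the main inorganic phosphate transporter and is the coding gene nearest to *ecl3* on 1 side. It had 14190, 19624 and 18723 normalized reads in *ecl123*Δ, against 27439, 33900 and 30593 in *ecl3*Δ and 34345, 31652 and 30292 in the WT. All *ecl123*Δ libraries lay below all others, by log2 -0.81 (SE 0.15) relative to *ecl3*Δ, with an adjusted p of 0.461 in edgeR and 0.000937 in DESeq2. The *ecl3* deletion beside it is the same in the groups compared. On the other side of *ecl3*, SPBC8E4.03, annotated as an agmatinase gene, differed by log2 0.24 (SE 0.12).

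The 6 libraries differed almost as much within a strain as between strains. Over the coding genes tested, the root mean square log2 difference was 0.254 to 0.538 for the 9 pairs between strains, 0.304 to 0.442 within *ecl123*Δ and 0.229 to 0.388 within *ecl3*Δ. From 53 to 244 coding genes differed by at least 2-fold in a pair between strains, 85 to 119 within *ecl123*Δ and 29 to 132 within *ecl3*Δ. The deposited counts summed to 24797503 to 30639474 per *ecl123*Δ library, 24877150 to 34871124 per *ecl3*Δ library and 23254907 to 34857589 per WT library. With this spread DESeq2, run on the same 6 libraries, called 38 coding genes higher and 21 lower in *ecl123*Δ (0.753% and 0.416% of 5047), against 1 and 0 in edgeR. Of the 59, 58 were tested in edgeR, all 58 had an unadjusted p under 0.05 there, and 54 had libraries that did not overlap. At an unadjusted p under 0.05, edgeR gave 186 coding genes higher (3.73%) and 131 lower (2.63%), and all 3 *ecl123*Δ libraries lay above all 3 *ecl3*Δ libraries for 317 coding genes (6.36%) and below them for 234 (4.69%). The median log2 difference of all coding genes was -0.011.

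**Figure D2:**
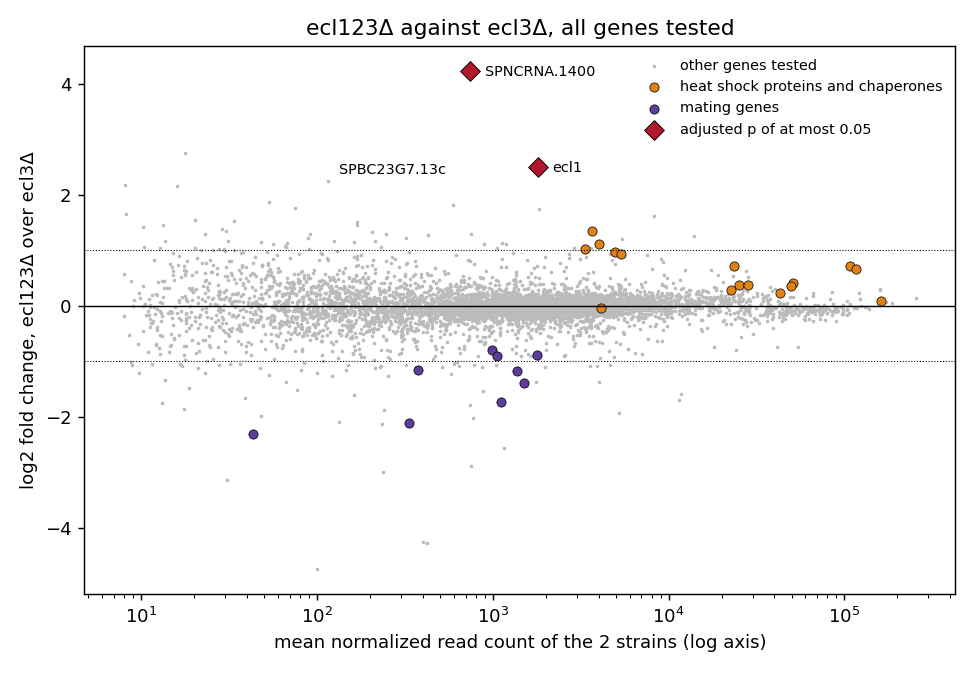
Log2 fold change of *ecl123*Δ over *ecl3*Δ (vertical axis) against the mean normalized read count of the 2 strains (log axis) for the 6225 genes tested, with dotted lines at 2-fold. Of these genes, *ecl1* and SPNCRNA.1400 (diamonds) pass an adjusted p of 0.05, the 9 mating genes lie below 0 and 15 of the 16 chaperone genes lie above it.

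Single libraries stood at the extremes of many of these genes. *ecl123*Δ replicate 3 was the farthest from its fellow libraries, at root mean square log2 differences of 0.441 and 0.442 against 0.304 between replicates 1 and 2, and it was the highest *ecl123*Δ library for 46.3% of all coding genes tested. *ecl3*Δ replicate 2 was the highest *ecl3*Δ library for 120 of the 131 coding genes lower at an unadjusted p under 0.05 (91.6%), against 39.6% of all coding genes tested, and *ecl3*Δ replicate 1 was the lowest for 103. Among the 186 higher genes, *ecl123*Δ replicate 2 was the lowest *ecl123*Δ library for 112 (60.2%), against 27.7% of all coding genes. A total of 58 coding genes differed by at least 2-fold in the fit with a mean of at least 100 in the higher strain, 26 higher and 32 lower. The libraries did not overlap for 15 of the 26 (0.301% of coding genes) and for 10 of the 32 (0.201%). In the 22 lower genes with overlapping libraries *ecl3*Δ replicate 2 was the highest *ecl3*Δ library every time, and in the 11 such higher genes *ecl123*Δ replicate 2 was the lowest *ecl123*Δ library every time.

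Genes that act in mating made up the most uniform group. All 9 mating genes that the study names had 3 *ecl123*Δ libraries below all 3 *ecl3*Δ libraries, where 4.69% of coding genes did. Their differences ran from 1.73-fold to 5.0-fold lower with a median log2 of -1.18. None passed edgeR (unadjusted p 0.000609 to 0.0051, adjusted p 0.433 to 0.485). DESeq2 called 8 of the 9 lower, where it called 0.416% of all coding genes lower. The study chose genes that were lower in the same *ecl123*Δ libraries than in the WT. They were also higher in an earlier microarray of cells with *ecl* genes on high-copy plasmids. Since the choice used these *ecl123*Δ libraries, the list is not independent evidence of its direction.

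*ste11*, the gene for the transcription factor at the head of the mating program, had 532, 494 and 520 normalized reads in *ecl123*Δ, against 982, 3148 and 994 in *ecl3*Δ and 2539, 2062 and 1896 in the WT. The *ecl123*Δ libraries agreed closely, and *ecl3*Δ replicate 2 lay above the WT while the other *ecl3*Δ libraries lay between the strains. The log2 difference of -1.73 (SE 0.44) had an adjusted p of 0.479 in edgeR and 0.12 in DESeq2, and it was -0.94 without *ecl3*Δ replicate 2. *map1*, which encodes a MADS-box transcription factor of mating-type-specific genes, had 234, 291 and 170 in *ecl123*Δ, against 394, 641 and 511 in *ecl3*Δ and 609, 650 and 651 in the WT (log2 -1.15, SE 0.26).

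The genes for M-factor and its export were all below the *ecl3*Δ libraries. *mfm1* had 19.4, 14.8 and 8.61 normalized reads in *ecl123*Δ, against 33.1, 109 and 74.3 in *ecl3*Δ and 87.6, 132 and 103 in the WT, a log2 difference of -2.32 (SE 0.52) at low counts. *mfm2*, a second precursor gene, had 960, 863 and 694 in *ecl123*Δ, against 1392, 2473 and 1848 in *ecl3*Δ and 2083, 2492 and 2313 in the WT (log2 -1.18, SE 0.22, DESeq2 adjusted p = 0.000207). The third precursor gene, *mfm3*, had 24.3, 28.5 and 30.6 in *ecl123*Δ and 36.4, 61.2 and 33.2 in *ecl3*Δ (log2 -0.65, SE 0.35). *mam1*, whose product exports M-factor, had 1032, 1239 and 1497 in *ecl123*Δ, against 1724, 3161 and 2116 in *ecl3*Δ (log2 -0.89, SE 0.23). None of these genes overlapped between the strains.

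On the receiving side, *mam2*, the gene for the P-factor receptor, had 116, 120 and 137 normalized reads in *ecl123*Δ, against 246, 937 and 436 in *ecl3*Δ and 514, 677 and 850 in the WT. The *ecl123*Δ libraries lay within a narrow range while those of *ecl3*Δ spread widely, and the log2 difference of -2.11 (SE 0.45) was -1.45 without *ecl3*Δ replicate 2. *spk1*, which encodes the MAP kinase at the end of the pheromone cascade, had 844, 766 and 864 in *ecl123*Δ, against 1246, 3356 and 1916 in *ecl3*Δ and 2853, 3172 and 3270 in the WT (log2 -1.40, SE 0.32). *ste4*, the gene for the adaptor of that cascade, differed by log2 -0.91 (SE 0.23), and *rgs1*, the gene for the regulator that dampens the G protein of the receptor, by log2 -0.79 (SE 0.14). *rgs1* was the tightest of the 9, with 723, 728 and 707 in *ecl123*Δ against 1025, 1463 and 1255 in *ecl3*Δ.

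In each of the 9 genes *ecl3*Δ replicate 2 was the highest and replicate 1 the lowest of the *ecl3*Δ libraries, and replicate 1 lay below all 3 WT libraries. All *ecl123*Δ libraries lay below all WT libraries for the same 9 genes. Without *ecl3*Δ replicate 2 all 9 log2 differences stayed negative, from -1.89 for *mfm1* to -0.61 for *mam1*.

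**Figure D3:**
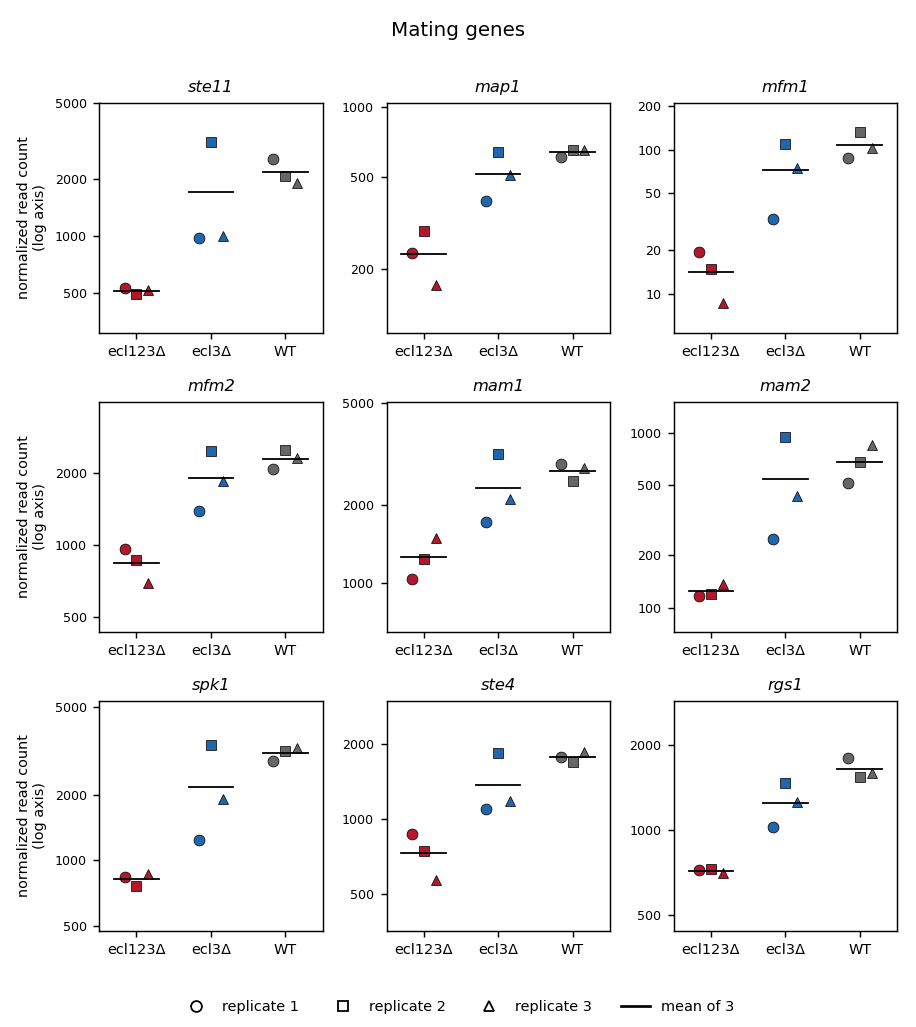
Normalized read counts (log axes that differ between panels) of the 9 mating genes in *ecl123*Δ, *ecl3*Δ and WT cells; points are libraries, marked by replicate, and bars are means of 3. In every panel the *ecl123*Δ points lie below the *ecl3*Δ points, and *ecl3*Δ replicate 2 (square) is the highest of its strain.

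Wider lists around mating gave smaller shares. Of 12 genes for pheromone receptors and the MAP kinase pathway, 7 were lower at an unadjusted p under 0.05, 7 did not overlap and 6 were called by DESeq2, with a median log2 of -0.58. Of all coding genes, 2.63% were lower at that p, 4.69% lay lower without overlap and DESeq2 called 0.416% lower. The 7 lower at that p included *mam2*, *spk1*, *ste4* and *rgs1* of the 9 mating genes, whose choice used these *ecl123*Δ libraries. They also included *gpa1*, which encodes the alpha subunit of the receptor-coupled G protein (942, 1232 and 1188 in *ecl123*Δ, 1455, 2819 and 1911 in *ecl3*Δ), *ste6*, the gene for the exchange factor of Ras1 (log2 -0.86, SE 0.23), and *byr1*, the gene for the MAP kinase kinase (log2 -0.37, SE 0.11). *ras1* itself differed by log2 -0.02 (SE 0.11) and *byr2*, the gene for the first kinase of the cascade, by 0.08 (SE 0.14). Genes for pheromone production, export and degradation had 5 of 10 lower at that p and 6 not overlapping, against the same 2.63% and 4.69% of all coding genes. *mfm1*, *mfm2* and *mam1* of the 9 mating genes were among the lower ones. *mam4*, which encodes the methyltransferase that modifies M-factor, was among them (log2 -0.47, SE 0.16). *sxa2*, the gene for a protease that M cells secrete against P-factor, had 682, 722 and 527 in *ecl123*Δ and 631, 697 and 682 in *ecl3*Δ, so its libraries overlapped.

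Of 11 regulators of sexual differentiation that were tested, 4 were lower at an unadjusted p under 0.05, against 2.63% of all coding genes. Beside *ste11* and *map1* these were *mei2*, the gene for the RNA-binding protein that starts meiosis (1204, 912 and 1558 in *ecl123*Δ, 1662, 2113 and 1843 in *ecl3*Δ, log2 -0.61, SE 0.19), and *pat1*, the gene for the kinase that holds Mei2 and Ste11 in check (log2 -0.74, SE 0.29), whose libraries overlapped. *prr1*, *rst2* and *pac2*, genes for regulators of *ste11* transcription, differed by log2 -0.17 (SE 0.14), -0.04 (SE 0.19) and 0.05 (SE 0.19). Of 7 genes for agglutination and cell fusion and 14 for meiosis, 0 and 1 were lower at that p. The 1 was *num1*, which encodes a dynein anchor, at 130, 133 and 122 in *ecl123*Δ and 173, 285 and 202 in *ecl3*Δ (log2 -0.77, SE 0.24).

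Markers of mating type were checked against the h− label. The summed normalized reads of 7 M-cell markers ran from 3480.6 to 3874.6 in *ecl123*Δ, 4891.7 to 8325.1 in *ecl3*Δ and 7159.6 to 7675.4 in the WT, and 4 of the 7 are among the 9 mating genes above. Those of 3 P-cell markers ran from 713.4 to 1004.8 in *ecl123*Δ, 879.6 to 984.1 in *ecl3*Δ and 766.2 to 915.2 in the WT. The M-cell sums did not overlap between the mutants while the P-cell sums did. The meiotic markers *mei4*, *rec8* and *spo5* summed to 216.2 to 269.8 in *ecl123*Δ and 263.1 to 307.6 in *ecl3*Δ, and *mei3* had 44 counts in the 6 libraries together, too few for the test. The mating-type genes *mat1-Mc* and *mat1-Mi* had 0 counts in all 6 libraries, and every 51-base window of them is repeated elsewhere in the RefSeq assembly.

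Some calcium genes had *ecl3*Δ replicate 2 high in the same way. *prz1*, the gene for the transcription factor that calcineurin activates, had 1919, 2029 and 2570 normalized reads in *ecl123*Δ, against 2492, 17902 and 4400 in *ecl3*Δ and 10657, 12262 and 13614 in the WT. *ecl3*Δ replicate 1 lay within the range of *ecl123*Δ and *ecl3*Δ replicate 2 above the WT, so the log2 difference of -1.93 (SE 0.65) was -0.66 without replicate 2. *ncs1*, the gene for a neuronal calcium sensor-like protein, had 2277, 3070 and 2134 in *ecl123*Δ, against 3030, 8159 and 4725 in *ecl3*Δ (log2 -1.09, SE 0.33, -0.64 without replicate 2). The vacuolar calcium pump gene *pmc1* and the calmodulin-dependent kinase gene *cmk1* had the same order of *ecl3*Δ libraries, with log2 differences of -1.11 (SE 0.44) and -0.85 (SE 0.32), or -0.41 and -0.35 without replicate 2. Of 17 calcium and calcineurin genes 5 were lower at an unadjusted p under 0.05, against 2.63% of all coding genes. The libraries of *prz1*, *ncs1* and *pmc1* overlapped. In this list 1 gene, *cmk1*, lay lower and 2 lay higher without overlap (4.69% and 6.36% of all coding genes). DESeq2 called 1 of them lower, *ncs1* (0.416% of all coding genes). The calcineurin subunit genes *ppb1* and *cnb1* differed by log2 0.06 (SE 0.09) and -0.09 (SE 0.15).

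*zrt1*, the gene for the plasma membrane zinc transporter, had 2249, 3528 and 3159 in *ecl123*Δ, against 3273, 8299 and 7216 in *ecl3*Δ and 9435, 8543 and 7817 in the WT. Its *ecl3*Δ replicate 1 lay among the *ecl123*Δ libraries (log2 -1.07, SE 0.33), and 1 of 8 zinc genes was higher and 1, *zrt1*, lower at an unadjusted p under 0.05. Of all coding genes, 3.73% were higher and 2.63% lower at that p. *yhb1*, which encodes nitric oxide dioxygenase, had 4576, 6973 and 4607 in *ecl123*Δ, against 6724, 31927 and 14142 in *ecl3*Δ and 25097, 30960 and 30488 in the WT (log2 -1.71, SE 0.50, -0.95 without *ecl3*Δ replicate 2), and 2 of 15 genes for nitrosative and oxidative stress enzymes were higher and 1, *yhb1*, lower at that p. *erg1*, the gene for squalene monooxygenase of ergosterol synthesis, was the 1 of 21 ergosterol genes below that p, at log2 -0.87 (SE 0.34).

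Most of the remaining lower genes of at least 2-fold also had a high *ecl3*Δ replicate 2. *imt2*, which encodes a mannosyltransferase, had 341, 512 and 494 in *ecl123*Δ, against 609, 2320 and 977 in *ecl3*Δ and 1664, 1804 and 2017 in the WT (log2 -1.54, SE 0.45, -0.82 without *ecl3*Δ replicate 2). *pof9*, the gene for an F-box protein, had 394, 532 and 587 in *ecl123*Δ and 644, 1738 and 783 in *ecl3*Δ (log2 -1.06, SE 0.36). SPAC13C5.05c, which encodes an N-acetylglucosamine-phosphate mutase, had 2304, 2301 and 2213 in *ecl123*Δ against 2312, 8406 and 3800 in *ecl3*Δ, so that *ecl3*Δ replicate 1 lay just above the *ecl123*Δ range (log2 -1.09, SE 0.40, -0.43 without *ecl3*Δ replicate 2). The rule that named these genes required libraries that did not overlap. It also gave SPAC1952.04c (log2 -1.07, SE 0.32) and SPAC922.09 (log2 -1.08, SE 0.35), whose functions are not known. In all 33 coding genes that the naming rule gave and that were lower at an unadjusted p under 0.05, *ecl3*Δ replicate 2 was the highest *ecl3*Δ library.

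*sul2*, *obr1* and *pho1*, from other lists, also had libraries that did not overlap. *sul2*, the gene for a sulfate transporter, had 851, 1019 and 1153 normalized reads in *ecl123*Δ, against 1287, 2216 and 2209 in *ecl3*Δ and 1981, 2116 and 2272 in the WT (log2 -0.92, SE 0.22, DESeq2 adjusted p = 0.0199). It was the 1 of 15 genes of sulfate assimilation and methionine synthesis below an unadjusted p of 0.05, where 2.63% of all coding genes were lower. *obr1*, which encodes a quinone dehydrogenase, had 41744, 48797 and 31224 in *ecl123*Δ and 57100, 77187 and 70326 in *ecl3*Δ (log2 -0.75, SE 0.19). *pho1*, the gene for secreted acid phosphatase, had 18468, 25785 and 18207 in *ecl123*Δ, against 27211, 33996 and 30736 in *ecl3*Δ (log2 -0.56, SE 0.17, adjusted p 0.552 in edgeR and 0.0983 in DESeq2). *ecl3*Δ replicate 1 was the lowest *ecl3*Δ library of *sul2*, *obr1* and *pho1*. *tgp1*, the third classical phosphate-response gene beside *pho1* and *pho84*, had 366, 318 and 466 in *ecl123*Δ and 396, 293 and 423 in *ecl3*Δ (log2 0.05, SE 0.21).

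Among the genes with more reads in *ecl123*Δ, the clearest after *ecl1* was SPBC23G7.13c, which encodes a urea transporter. It had 162, 253 and 159 normalized reads in *ecl123*Δ, against 49.6, 34.2 and 36.6 in *ecl3*Δ and 34.6, 19.5 and 40.9 in the WT. The groups were far apart, at 4.72-fold (log2 2.24, SE 0.29), with an adjusted p of 0.138 in edgeR, 2.02e-09 in DESeq2 and 0.0202 in limma voom with library weights. Of 19 genes for the uptake of nitrogen compounds, 6 were higher and 3 lower at an unadjusted p under 0.05, against 3.73% and 2.63% of all coding genes. *nrg1*, the gene for an amino acid permease, had 1114, 912 and 929 in *ecl123*Δ against 745, 408 and 605 in *ecl3*Δ (log2 0.75, SE 0.22), while *isp5*, another amino acid permease gene, had 237, 283 and 307 against 339, 588 and 450 (log2 -0.73, SE 0.23).

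*vht1*, the gene for the vitamin H (biotin) transporter, had 19868, 17510 and 21891 in *ecl123*Δ, against 11723, 5328 and 7867 in *ecl3*Δ and 6690, 5755 and 5508 in the WT (log2 1.25, SE 0.26, DESeq2 adjusted p = 0.000655). The pantothenate transporter gene *liz1* differed less, by log2 0.24 (SE 0.10), also without overlap. Of 10 vitamin genes 2 were higher at an unadjusted p under 0.05 and 4 lay above *ecl3*Δ without overlap. The shares of all coding genes were 3.73% and 6.36%. *aca1*, which encodes an acetyltransferase that detoxifies a proline analog, had 4140, 4744 and 2786 in *ecl123*Δ, against 1911, 1710 and 2085 in *ecl3*Δ and 1975, 1899 and 1719 in the WT (log2 1.03, SE 0.19). It passed limma voom (adjusted p = 0.00762), as did SPAC9G1.14, of unknown function, at 353, 300 and 231 in *ecl123*Δ against 139, 96.5 and 117 in *ecl3*Δ (adjusted p = 0.0239).

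SPAC1039.02, annotated as a phosphoprotein phosphatase gene, had 7539, 6518 and 8496 in *ecl123*Δ, against 4120, 1702 and 4051 in *ecl3*Δ and 2244, 2537 and 2339 in the WT (log2 1.19, SE 0.31). The study counts it among phosphate-mobilizing genes, as one for a predicted extracellular nucleotidase. *pho84* and *pho1*, which serve phosphate uptake, lay on the other side. Of 12 phosphate genes 1 was higher and 2 lower at an unadjusted p under 0.05, against 3.73% and 2.63% of all coding genes. The rest of the group was mixed in known function. It held SPAC27D7.11c and SPAC27D7.09c of the But2 family (log2 1.05, SE 0.18, and 1.28, SE 0.30; much of SPAC27D7.09c is repeated elsewhere in the genome), SPAC11D3.09, an agmatinase gene (log2 1.05, SE 0.25), *isp7*, the gene for a 2-oxoglutarate oxygenase (log2 1.13, SE 0.28), SPAC4H3.08, a dehydrogenase gene (log2 1.22, SE 0.31), and SPAC8E11.08c (log2 1.17, SE 0.29). The rule that named them required libraries that did not overlap. None passed edgeR, and DESeq2 called all of them.

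Heat shock proteins and chaperones leaned to higher values, with *ecl123*Δ replicate 2 apart from the other *ecl123*Δ libraries. Of 16 genes 15 had a positive log2 difference, 10 were higher at an unadjusted p under 0.05, 6 did not overlap and DESeq2 called 4, with a median log2 of 0.53. Of all coding genes, 3.73% were higher at that p, 6.36% lay higher without overlap and DESeq2 called 0.753% higher. *ecl123*Δ replicate 2 was the lowest *ecl123*Δ library for 13 of the 16. *hsp16*, the gene for a small heat shock protein, had 8512, 4742 and 6314 normalized reads in *ecl123*Δ, against 3217, 3722 and 3031 in *ecl3*Δ and 4056, 2210 and 3996 in the WT (log2 0.97, SE 0.20, DESeq2 adjusted p = 0.00191). *hsp78*, the gene for a mitochondrial chaperone, had 8002, 4335 and 8653 in *ecl123*Δ and 3918, 3695 and 3470 in *ecl3*Δ (log2 0.92, SE 0.24).

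The Hsp70 gene *ssa1* had 6926, 2133 and 6701 in *ecl123*Δ, against 2207, 2106 and 1894 in *ecl3*Δ and 2064, 2017 and 2282 in the WT. Its *ecl123*Δ replicate 2 lay within the *ecl3*Δ range, and without that library *ssa1* passed edgeR at log2 1.72 (adjusted p = 0.00334), as did *hsp78* (adjusted p = 0.022). Over all 14 alternatives the log2 difference of *ssa1* ran from 0.87 to 1.72 and that of *hsp78* from 0.68 to 1.17, and each passed in 2 of the 14. *hsp90* had 139319, 91501 and 170353 in *ecl123*Δ and 95576, 72973 and 75649 in *ecl3*Δ (log2 0.72, SE 0.23), and *sti1*, the gene for a cochaperone of Hsp90, had 33011, 20258 and 34210 against 20065, 16761 and 16673 (log2 0.71, SE 0.20). *hsf1*, which encodes the heat shock transcription factor, had 3950, 4042 and 4155 in *ecl123*Δ and 4150, 4062 and 4239 in *ecl3*Δ, and overlapped.

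Of 27 core stress genes, which respond to many kinds of stress and include *hsp16* and *hsp104* of the chaperones, 12 were higher and 2 lower at an unadjusted p under 0.05, with a median log2 of 0.42. The shares of all coding genes at that p were 3.73% higher and 2.63% lower. The libraries did not overlap for 4 higher and 2 lower of the 27 (6.36% and 4.69% of all coding genes). DESeq2 called 4 higher and 1 lower (0.753% and 0.416% of all coding genes). *ctt1*, the gene for catalase, had 5481, 2117 and 5494 in *ecl123*Δ, against 2371, 2570 and 2181 in *ecl3*Δ, so that *ecl123*Δ replicate 2 lay below all *ecl3*Δ libraries (log2 0.88, SE 0.32). Without it *ctt1* passed edgeR at log2 1.21 (adjusted p = 0.022), which was the 1 of 14 alternatives in which it passed, over a range of 0.53 to 1.21. *mug14*, an adducin gene, kept its libraries apart, with 424, 289 and 326 in *ecl123*Δ against 199, 166 and 198 in *ecl3*Δ (log2 0.88, SE 0.20), and so did *sro1* (log2 0.93, SE 0.25). *pmp20*, the gene for a thioredoxin-related chaperone, had 17112, 7959 and 10126 in *ecl123*Δ and 7294, 6494 and 6512 in *ecl3*Δ (log2 0.79, SE 0.26), and the metallothionein gene *zym1*, at 1509, 579 and 751 against 562, 584 and 480, overlapped.

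**Figure D4:**
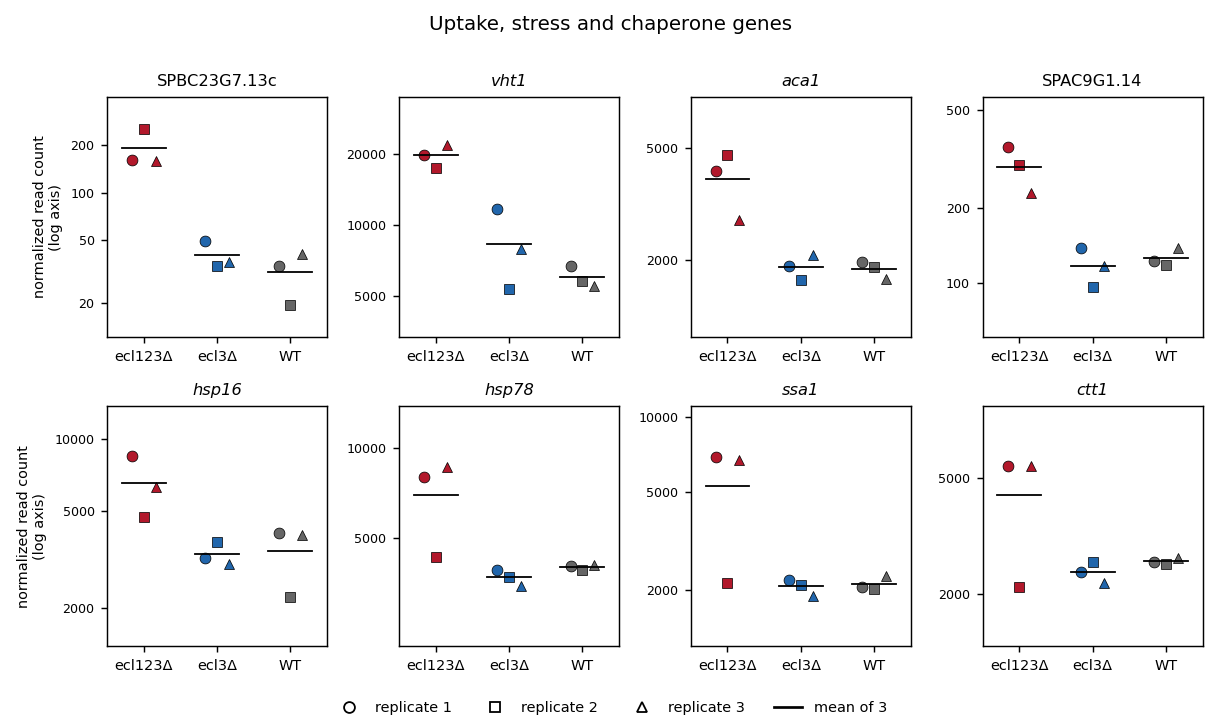
Normalized read counts (log axes that differ between panels) of uptake, stress and chaperone genes in *ecl123*Δ, *ecl3*Δ and WT cells; points are libraries, marked by replicate, and bars are means of 3. SPBC23G7.13c, *vht1*, *aca1* and SPAC9G1.14 have *ecl123*Δ points above all others, while *ecl123*Δ replicate 2 (square) falls to the *ecl3*Δ level in *ssa1* and *ctt1*.

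The remaining lists had 0 to 3 genes at an unadjusted p under 0.05 each, where 3.73% of all coding genes were higher and 2.63% lower. The 137 genes for cytosolic ribosomal proteins had a median log2 of -0.093, with 124 below 0 and a range of -0.39 to 0.11, and 0 had an unadjusted p under 0.05. The 30 autophagy genes also had 0 at that p, with 23 below 0, 2 lower and 1 higher without overlap (4.69% and 6.36% of all coding genes), and a median log2 of -0.11. The 10 histone genes had 0 at that p, with 9 below 0, 3 lower without overlap (4.69% of all coding genes) and a median log2 of -0.12. The 35 aminoacyl tRNA synthetase genes had 0 at that p, with 26 above 0, 3 higher without overlap (6.36% of all coding genes) and a median log2 of 0.068. Of 18 genes for TOR, AMPK and quiescence signaling 1 was lower, *gaf1*, which encodes a GATA transcription factor that TOR restrains (log2 -0.38, SE 0.14), and its libraries overlapped. In the cAMP pathway, which restrains *ste11*, *cgs1*, the gene for the regulatory subunit of protein kinase A, had 161, 147 and 199 in *ecl123*Δ and 214, 466 and 204 in *ecl3*Δ (log2 -0.80, SE 0.34), *git11*, the gene for a G protein gamma subunit, differed by log2 0.42 (SE 0.18), and *pka1*, the gene for the catalytic subunit, by 0.18 (SE 0.23).

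For iron, 3 of 17 genes were higher at that p, namely *php4*, the gene for a repressor of iron-using genes (log2 0.34, SE 0.14), *fio1*, the gene for an iron uptake oxidase (log2 0.95, SE 0.40), and *isu1*, the gene for an iron-sulfur scaffold (log2 0.72, SE 0.29). The hexose and glucose-repressed list held *ght3*, the gene for a gluconate transporter, at 166, 60.5 and 162 in *ecl123*Δ and 67, 46.7 and 44.6 in *ecl3*Δ, and *scr1*, the gene for a glucose repressor (log2 -0.61, SE 0.21). Both overlapped. Of the transcription factors reported to act on *ecl* genes, *fil1*, *zip1*, *hsf1* and *pho7*, 0 of 4 had an unadjusted p under 0.05, with log2 differences from -0.40 to 0.06. Only 3 of 13 Tf2 retrotransposons passed the filter on low counts, and since their copies share most of their sequence they were not described further.

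**Figure D5:**
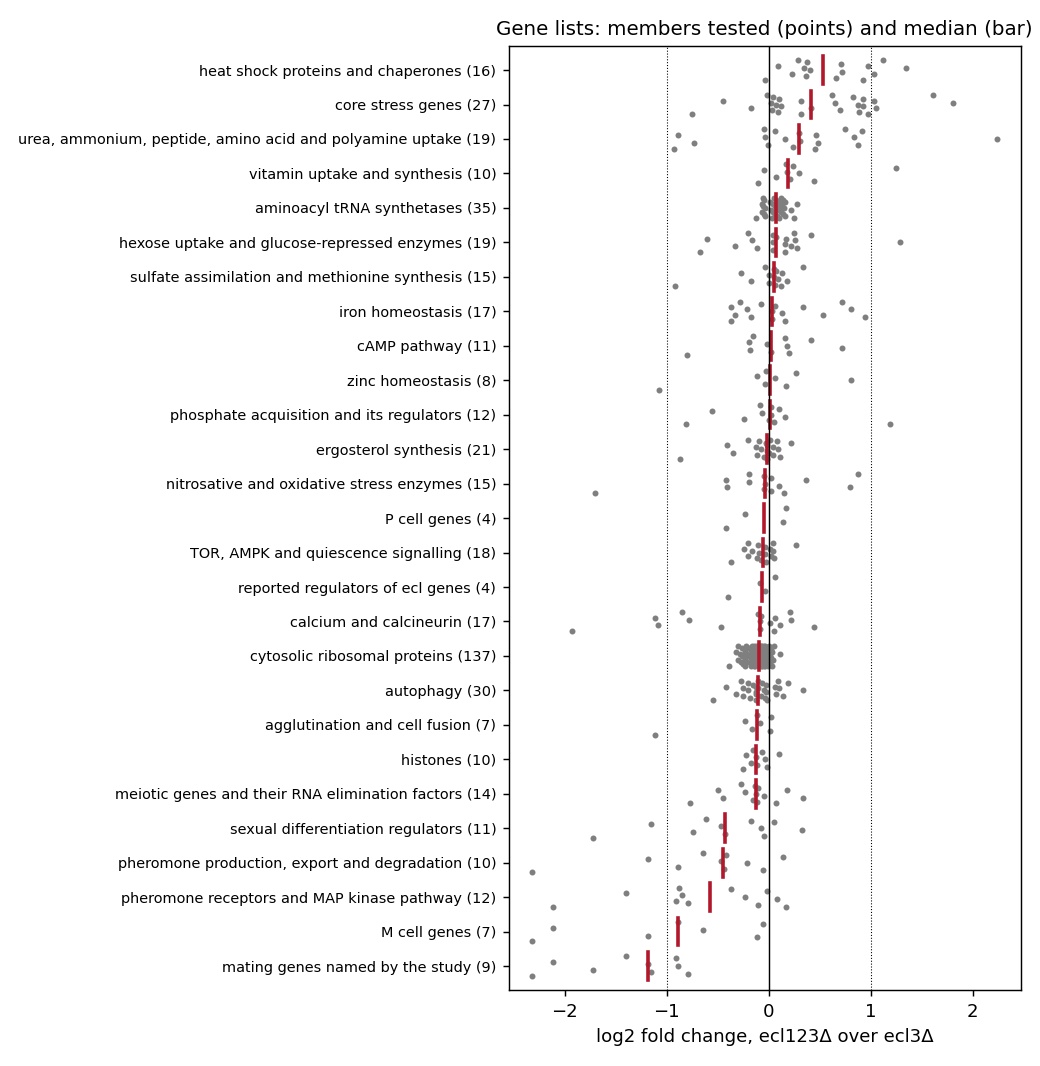
Log2 fold change of *ecl123*Δ over *ecl3*Δ (horizontal axis) for the tested members of each gene list with at least 4 of them; points are genes, bars are medians and the number of genes is in brackets. Medians run from -1.18 for the mating genes to 0.53 for the heat shock proteins and chaperones.

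Noncoding genes beside SPNCRNA.1400 showed smaller differences. SPNCRNA.1211 had 307, 211 and 219 normalized reads in *ecl123*Δ, against 71.1, 89.2 and 111 in *ecl3*Δ and 93, 90.3 and 96.2 in the WT (log2 1.45, SE 0.26), and SPNCRNA.1271 had 325, 249 and 313 against 135, 92.3 and 169 in *ecl3*Δ (log2 1.16, SE 0.26). SPNCRNA.1328 differed by log2 1.01 (SE 0.30), and SPNCRNA.293 had 261, 243 and 172 in *ecl123*Δ against 146, 52.9 and 105 in *ecl3*Δ. In the other direction, SPNCRNA.839 had 386, 421 and 374 in *ecl123*Δ, against 666, 1120 and 659 in *ecl3*Δ and 891, 1045 and 1097 in the WT (log2 -1.05, SE 0.22). SPNCRNA.995, SPNCRNA.685 and SPNCRNA.1534 differed by log2 -1.23 (SE 0.37), -1.13 (SE 0.31) and -1.22 (SE 0.28). The rule that named these 8 genes required libraries that did not overlap, and none of the 8 passed edgeR. Over the 1240 noncoding genes, 7.98% lay above *ecl3*Δ without overlap and 5.24% below (13.2% in all), and 0.484% and 0.323% did so with at least 2-fold and a mean of at least 100. An unadjusted p under 0.05 was reached by 4.76% in the higher and 3.71% in the lower direction (8.47% in all). DESeq2, which tested 1462 noncoding genes, called 0.752% higher and 0.684% lower, or 0.205% and 0.274% with the fold and mean limits.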

How the data were processed

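Counts of 9 poly(A)+ RNA-seq libraries were used, 3 each of *ecl123*Δ, *ecl3*Δ and WT cells, grouped by the labels. The authors made strand-specific libraries, mapped paired reads of 51 bases to ASM294v2 with HISAT2 2.1.0 and SAMtools, and obtained exon counts per gene from HTSeq 0.10.0. The strand setting was not given in the sources used here. The deposited table holds raw counts for 6988 genes. Tables of the authors' DESeq2 comparisons with the WT, which hold fold changes and p values, were not used. No column of per-sample values was left out.

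Only the *ecl123*Δ and *ecl3*Δ libraries were fitted. Genes were kept by filterByExpr, which left 6225 (4985 coding), and edgeR 4.0.16 in R 4.3.3 gave TMM factors and quasi-likelihood p values, with Benjamini-Hochberg adjustment over all 6225. SE is the log2 fold change over the square root of F. WT values were scaled together with the 6 libraries, which moved those by at most 1.11%. An exact permutation test of 3 against 3 libraries cannot give a two-sided p under 0.1. The scripts were first tested on simulated data.

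Alternatives were DESeq2 1.42.0, limma 3.58.1 voom with library weights, RLE and library-size scaling, no filter, all 9 libraries, a replicate block, other limits and each library left out. Names, gene order, lengths and repeated sequence came from the RefSeq annotation of ASM294v3, which matched 6836 IDs; no coordinates of it are given. The members and the 29 lists (506 genes) were chosen with earlier results of these data known, and 9 list keys matched no gene. After the files were opened, the patterns for ribosomal proteins and tRNA synthetases were adapted to RefSeq spelling. Named were the *ecl* genes and their neighbors, up to 12 coding genes per direction with at least 2-fold change, a mean of at least 100 and libraries apart (in order of p), the 9 mating genes of the study, from each list as many as 4 genes, by lowest p under 0.05, and any others needed for their role, and up to 5 noncoding genes per direction.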

Additional observations from a re-analysis of the deposited data

How the results depend on the processing

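*ecl1* and SPNCRNA.1400 passed an adjusted p of 0.05 in all 14 alternatives run on single genes. The number of coding genes called did not keep so well. With no fold limit, the 1 higher and 0 lower of edgeR became 38 and 21 in DESeq2, 5 and 0 in limma voom, and 3 and 0 with all 9 libraries in the fit. With at least 2-fold and a mean of at least 100, 1 and 0 became 17 and 5 in DESeq2, 5 and 0 in voom, and 2 and 0 with all 9 libraries. RLE scaling, library size alone, no filter, no minimum mean, a limit of 1.5-fold and the replicate block each gave 1 and 0. The replicate numbers do not pair the libraries (correlations of -0.0446, -0.088 and -0.238), so the block is given only here.

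Leaving out 1 library gave 1 to 8 higher under either rule, 8 without *ecl123*Δ replicate 2 and 3 without *ecl123*Δ replicate 3, and 0 lower. DESeq2 called 107 coding genes without *ecl3*Δ replicate 1, of which 64 were lower, 37 of them past the fold and mean limits. It gave 12 higher and 7 lower (9 and 1 past the limits) without *ecl3*Δ replicate 2. Without *ecl3*Δ replicate 3 there were 11 and 8 (8 higher past them), and without *ecl123*Δ replicate 1 there were 10 and 9 (5 higher past them). DESeq2 called 118 without *ecl123*Δ replicate 2, of which 91 were higher (45 higher and 12 lower past the limits). Without *ecl123*Δ replicate 3 it gave 62 and 70 (10 higher past them). Where a DESeq2 count for a direction is not given, it was not 0 and lay within 1.5-fold of the count from all 6 libraries. Of the 59 genes that DESeq2 called with all 6 libraries, 15 to 51 were called again. Without *ecl123*Δ replicate 3 and *ecl3*Δ replicate 2 (chosen after seeing the data, as was leaving libraries out of DESeq2), edgeR gave 3 higher and 0 lower under either rule, and DESeq2 44 and 64, or 10 and 1 past the limits; voom gave these libraries weights of 0.142 and 0.676. Of the 80 named genes 37 were called in at least 1 alternative. Signs reversed for SPBP35G2.17 (0.10 in voom, 0.33 without both libraries, -0.81 to 0.15 with 1 library left out), SPCC70.04c (-0.074 and -0.014 without *ecl3*Δ replicates 1 and 3, -0.10 without *ecl123*Δ replicate 2, up to 0.36 with 1 library left out and 0.55 without both) and *nnk1* (-0.055 without *ecl123*Δ replicate 3, up to 0.30). The cause of these differences was not tested.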

Other observations

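Of the 38 coding genes that DESeq2 called higher in *ecl123*Δ, 4 outside the naming rule are given here as values. They were picked after their values were seen and come from no fixed list, so they say nothing about a group of genes. *lys4*, the gene for homocitrate synthase of lysine synthesis, had 26896, 25697 and 29966 normalized reads in *ecl123*Δ, against 20835, 16700 and 19254 in *ecl3*Δ. *car2*, the gene for ornithine transaminase, had 31940, 32607 and 35658 in *ecl123*Δ and 24484, 21973 and 23409 in *ecl3*Δ, and *hom2*, the gene for aspartate semialdehyde dehydrogenase, had 33131, 33572 and 30044 against 24880, 22669 and 24475. *gdh2*, the gene for NAD-dependent glutamate dehydrogenase, had 3129, 2705 and 3810 in *ecl123*Δ against 2314, 1775 and 1829 in *ecl3*Δ. None of the 4 overlapped between the strains, and edgeR's adjusted p did not pass for any.

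Some coding genes with large fitted differences had libraries that overlapped, and these too were chosen after they were seen. SPAC750.01 had 68.9, 19.4 and 34.4 normalized reads in *ecl123*Δ, against 44.7, 2359 and 20.6 in *ecl3*Δ and 610, 17.1 and 23.2 in the WT, and 32.54% of its sequence is repeated elsewhere. *gdt1* had 912, 34.2 and 46.9 in *ecl123*Δ, 1296, 2087 and 70.9 in *ecl3*Δ and 869, 6.1 and 33.7 in the WT, so that replicate 1 was high in all 3 strains, and SPAC186.06 had the same order of libraries in *ecl123*Δ and *ecl3*Δ, with 113, 2.28 and 3.83 against 133, 201 and 9.15. *atd1*, the gene for an aldehyde dehydrogenase, had 15233, 4672 and 17517 in *ecl123*Δ against 5559, 2719 and 4007 in *ecl3*Δ, and *rtc3* had 4669, 845 and 2965 against 696, 1258 and 589.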
